A study of Homo sapiens with 4 samples.

Results

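The strongest peaks of CHAF1A CUT&Tag were examined, taken as those on chromosomes 1 to 22 and X whose −log10 p was at least 290. They numbered 647 of 76151 peaks in the control list, which is 0.85%, and 782 of 97492 peaks in the siRNA list, which is 0.802%. Each was placed within 1 kb of a boundary of a protein-coding gene (a gene end) or away from one, and was called narrow where its width was under 400 bp and wide otherwise. The members were chosen by the −log10 p that the authors' peak caller gave them, so their strength is a description and not a result. Whether CHAF1A binds at each of them was not tested.

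CHAF1A was mapped by CUT&Tag in RBE, an established human line of intrahepatic cholangiocarcinoma, a cancer of the bile ducts of the liver. The cells were transfected with a control siRNA (2 samples) or with an siRNA that targets CHAF1A (2 samples) and were harvested at 48 hours. All samples are of this 1 cell line and carry no other treatment. There is 1 peak list per group, assigned to the groups by the names NC and si, and neither keeps the 2 samples apart. The 2 conditions can therefore be described side by side but not tested, and no p-value is printed. The level of CHAF1A after transfection was not measured in these files. Intervals in brackets are 95% exact binomial (Clopper-Pearson) intervals and cover counting error only. The labelled cell type was checked on its markers: 8 of 9 cholangiocyte genes had a control peak at an end (all but CFTR), as did 1 of 6 hepatocyte, 2 of 5 immune, 2 of 4 fibroblast and 0 of 3 endothelial genes. In the siRNA list the counts were 6, 1, 3, 2 and 2, so the markers set the cell types less apart there. Over all 19974 protein-coding genes, 12240 had a control peak at an end and 12874 a siRNA peak. In longer lists, 15 of 17 cholangiocyte genes had a control peak and 10 a siRNA peak. Of 15 hepatocyte genes 4 and 7 did, and of 12 immune, stromal and endothelial genes 4 and 7. None of these marker genes had an extreme peak, a count near the shares over all protein-coding genes, 1.93% (control) and 2.52% (siRNA).

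CHAF1A is the large subunit of CAF-1, the chaperone that hands newly made histones H3 and H4 to freshly replicated DNA. CUT&Tag uses an antibody to bring a transposase to a protein on chromatin, and sequences the fragments released there. The peak caller MACS2 compares the fragment pileup at a summit with a local background, and its p falls both with a larger ratio and with more fragments at the same ratio.

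In the control list 300 extreme peaks lay at gene ends and 347 away from them, and in the siRNA list 391 lay at gene ends and 391 away. The share at gene ends was 46.4% [42.5 to 50.3] in the control list, where 17.5% of all peaks lay there, and 50% [46.4 to 53.6] in the siRNA list, against 15.2% of all peaks. At a −log10 p of 100 to 290 the shares were 50.8% and 52.9%. Width and place went together. At gene ends 0 of 300 control members were narrow, with an exact upper limit of 1.22%, and 1 of 391 siRNA members was, the peak at SPATC1L. Away from gene ends 76 of 347 and 88 of 391 were narrow. Over all peaks 62.4% in the control list and 60.1% in the siRNA list were narrow, with both places joined. Peaks at 5′ ends of genes that were not members were wider than that share implies. Their median width was 583 bp (quartiles 344 and 855) in the control list and 630 bp (363 and 959) in the siRNA list. At a −log10 p of at least 200, which includes the members, 2 of 515 control and 1 of 551 siRNA peaks at gene ends were narrow. Away from gene ends 113 of 523 and 122 of 556 were.

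At gene ends the leading members covered gene promoters, and the letters of 4 of these promoters are shown first, because a short word recurs in them. They are the 4 leading genes by control −log10 p that have an entry in the RefSeq promoter table (GRCh38.p14), each printed from 250 bases before to 50 bases after the transcript start, 5′ to 3′ on the gene's own strand. INTS13 lies on the minus strand at chr12:26937932-26938231 and FGFR1OP2 on the plus strand at chr12:26938220-26938519, so that both share 1 peak. MED1 lies on the minus strand at chr17:39451214-39451513 and RC3H2 on the minus strand at chr9:122905310-122905609. Capitals mark the 7-base word TCTCGCG, on either strand.
INTS13: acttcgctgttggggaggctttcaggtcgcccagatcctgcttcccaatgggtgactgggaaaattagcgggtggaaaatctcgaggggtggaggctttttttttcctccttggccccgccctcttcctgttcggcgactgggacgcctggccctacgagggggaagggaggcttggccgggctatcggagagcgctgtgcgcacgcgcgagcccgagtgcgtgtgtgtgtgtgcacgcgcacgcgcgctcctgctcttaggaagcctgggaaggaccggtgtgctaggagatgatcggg
FGFR1OP2: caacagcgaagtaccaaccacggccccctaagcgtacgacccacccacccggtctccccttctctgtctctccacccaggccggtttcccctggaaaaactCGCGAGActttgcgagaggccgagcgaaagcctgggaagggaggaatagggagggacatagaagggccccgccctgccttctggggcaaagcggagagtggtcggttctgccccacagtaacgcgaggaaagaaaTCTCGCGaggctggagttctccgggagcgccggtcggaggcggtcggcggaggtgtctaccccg
MED1: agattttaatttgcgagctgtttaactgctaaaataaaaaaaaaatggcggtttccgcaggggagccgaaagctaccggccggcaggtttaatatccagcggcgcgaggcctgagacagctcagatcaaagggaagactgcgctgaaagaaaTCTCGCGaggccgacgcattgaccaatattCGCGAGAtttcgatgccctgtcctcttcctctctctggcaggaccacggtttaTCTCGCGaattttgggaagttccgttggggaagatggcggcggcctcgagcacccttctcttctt
RC3H2: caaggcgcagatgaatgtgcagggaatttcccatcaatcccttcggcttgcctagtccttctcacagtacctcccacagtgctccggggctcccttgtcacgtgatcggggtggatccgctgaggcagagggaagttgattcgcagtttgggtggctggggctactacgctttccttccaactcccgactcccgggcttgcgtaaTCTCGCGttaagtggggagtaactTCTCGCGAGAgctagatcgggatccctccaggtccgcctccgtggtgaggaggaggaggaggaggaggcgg

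The FGFR1OP2 promoter held 2 copies of the word, those of MED1 and RC3H2 held 3 each, and that of INTS13 held 0. In RC3H2 a pair of copies on opposite strands overlaps to form a 10-base palindrome, the core followed by AGA. The palindrome is known as a sequence to which the protein BANP binds at CpG-rich promoters. It was 1 of 12 motifs looked for, a list written with earlier results of these data known. The palindrome's 7-base core TCTCGCG was chosen after the shares of the palindrome had been seen. BANP binding was not analysed here.

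The promoter table gives 1 promoter for 15812 of the 19974 protein-coding genes (79.2%). Of the 323 promoters with an extreme control peak within 1 kb of the transcript start, 202 held the core TCTCGCG on either strand, which is 62.5% [57.0 to 67.8]. The share was 13.1% of 1114 promoters whose strongest peak had a −log10 p of 100 to 290, 3.72% of 7983 promoters with a weaker peak and 1.97% of 6392 promoters with none. It rose with strength among the members too, and was 53.8% of 173 promoters at 290 to 500, 70.3% of 128 at 500 to 1000 and 86.4% of 22 above 1000. In the siRNA list the core stood in 247 of 431 promoters with an extreme peak, 57.3% [52.5 to 62.0], and the same 3 steps were 39.0% of 195, 66.3% of 163 and 86.3% of 73. It stood in 4.88% of all 15812 promoters.

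**Figure D1:**
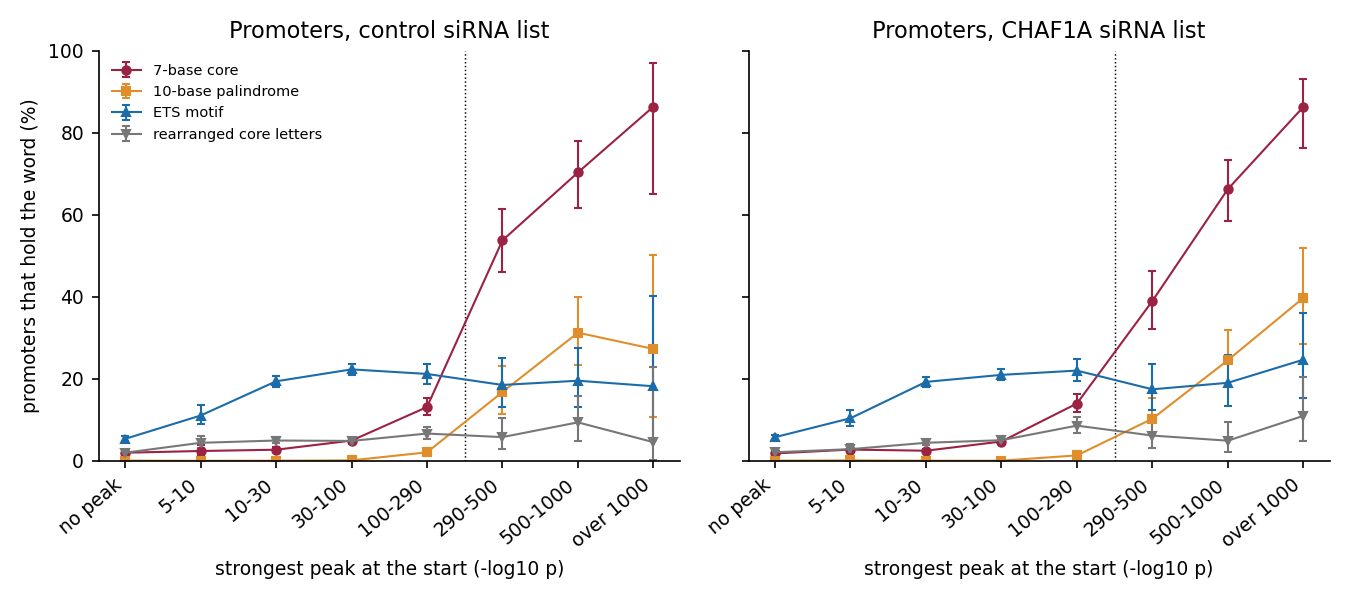
Share of promoters that hold a word (y axis, percent) by the −log10 p of the strongest peak at the transcript start (x axis, 8 steps), in the control list (left) and the siRNA list (right). Points are shares, bars are 95% exact binomial intervals, and the dotted line marks a −log10 p of 290. The 7-base core and the 10-base palindrome stand in few promoters below the line and in many above it, while the ETS motif and a rearrangement of the core's letters stay near their level in other promoters with peaks.

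The whole palindrome was rarer and sharper. It stood in 75 of the 323 promoters with an extreme control peak, 23.2% [18.7 to 28.2], in 23 of 1114 at 100 to 290, in 5 of 7983 with a weaker peak and in 3 of 6392 with none. Read from the sequence, 106 promoters held it in all, in 102 distinct windows. Of these 106, 75 (70.8% [61.1 to 79.2]) had an extreme control peak and 89 (84.0% [75.6 to 90.4]) an extreme siRNA peak, against 248 and 342 of the 15706 promoters without it. The related 8-base word TATCGCGA, chosen after values were seen, stood in 59 promoters, of which 42 had an extreme control peak and 47 an extreme siRNA peak.

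Further examples show the palindrome in its surroundings. The windows below are 40 bases long, in capitals over the palindrome, and belong to the 8 promoters with the strongest control peaks after RC3H2, 1 per peak. ATP5PB is at chr1:111449281-111449320 (plus strand), NCOA4 at chr10:46030651-46030690 (minus), TUBGCP5 at chr15:23039622-23039661 (minus) and MAPK14 at chr6:36027634-36027673 (plus). BTBD10 is at chr11:13463299-13463338 (minus), ATF7 at chr12:53626385-53626424 (minus), PIGN at chr18:62187243-62187282 (minus) and SPAG16 at chr2:213284371-213284410 (plus).
ATP5PB: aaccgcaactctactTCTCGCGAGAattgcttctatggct
NCOA4: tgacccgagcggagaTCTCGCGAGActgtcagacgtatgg
TUBGCP5: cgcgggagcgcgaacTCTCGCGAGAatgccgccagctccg
MAPK14: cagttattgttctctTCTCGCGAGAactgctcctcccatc
BTBD10: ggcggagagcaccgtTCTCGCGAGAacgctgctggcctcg
ATF7: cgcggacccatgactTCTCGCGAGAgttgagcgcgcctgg
PIGN: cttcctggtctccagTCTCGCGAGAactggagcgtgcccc
SPAG16: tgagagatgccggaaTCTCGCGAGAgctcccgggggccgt

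These 8 promoters belong to genes that encode, among others, a subunit of the mitochondrial ATP synthase (ATP5PB), the ferritin autophagy receptor (NCOA4), a part of the γ-tubulin ring complex (TUBGCP5), the p38α kinase (MAPK14) and a CRE-binding transcription factor (ATF7). Their control −log10 p ran from 862 at SPAG16 to 1400 at ATP5PB and their siRNA values from 1133 to 2208, and all 8 were higher in the siRNA list, whose genome-wide background was 1.34 times that of the control list.

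At 4 promoters the same 10 letters came with a control −log10 p under 30 or with no peak. FAM9A, at chrX:8801379-8801418 (minus strand), had a control value of 16.9 and an siRNA value of 12.4. MAP10, at chr1:232805325-232805364 (plus), and SYCP1, a synaptonemal complex protein of meiosis at chr1:114854770-114854809 (plus), had no peak in either list. POU4F1, a transcription factor of neurons at chr13:78603608-78603647 (minus), had none in the control list and 8.15 in the siRNA list.
FAM9A: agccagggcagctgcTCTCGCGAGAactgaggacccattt
MAP10: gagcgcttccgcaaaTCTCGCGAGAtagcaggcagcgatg
POU4F1: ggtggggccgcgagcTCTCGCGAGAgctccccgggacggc
SYCP1: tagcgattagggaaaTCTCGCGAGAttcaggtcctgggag
The palindrome thus did not come with an extreme peak at every promoter that holds it.

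Read on both strands, a palindrome holds 2 overlapping copies of the core, so promoters with it have at least 2 by construction. Of the 202 control promoters with the core, 107 held at least 2 copies, and 75 of the 202 hold the palindrome. With overlapping copies counted as 1 place, 58 of the 202 (28.7%) held the core in at least 2 places. Of the 297 promoters with the core and a peak below 100, 11 did (3.7%). The middle of a copy lay at a median of 62 bases before the transcript start (quartiles 120 and 23 bases before it). The summits of the extreme control peaks stood a median of 37 bp from the nearest copy (quartiles 21 and 72) and 90 bp from the start (47.3 and 146). Among the 95 promoters with 1 copy, where no nearest copy is picked, the distances were 50 and 109 bp. The start is a weak comparison, since extreme control summits at 5′ ends also lay before it, by a median of 81 bp. Distances to another word, or at weaker peaks, were not measured.

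The other 11 motifs differed less between promoters with an extreme peak and those with a peak below 100. The ETS motif CCGGAAG stood in 18.9% of the 323 promoters with an extreme control peak and in 20.0% of those with a peak below 100. The corresponding shares were 14.2% and 12.2% for the NRF1 motif, 8.67% and 10.3% for the E-box CACGTG, 3.41% and 3.06% for the CRE TGACGTCA, 66.9% and 69.9% for the GC box GGGCGG, and 38.1% and 35.7% for the CCAAT box. YY1 (AANATGGCG) rose from 1.27% without a peak over 6.94% below 100 and 7.36% at 100 to 290 to 12.4% [9.0 to 16.5] in the extreme set. The CCAAT and GC boxes were most frequent at 100 to 290, in 51.9% and 80.6% of promoters. Without a peak the ETS and NRF1 motifs stood in 5.35% and 2.78%. In the extreme set the TATA box TATAAA stood in 3.10%, against 5.55% below 100. For the ZNF143 motif the shares were 6.19% and 4.01%, for AP-1 (TGANTCA) 2.48% and 4.55%, and for the Pol III B box 0.619% and 0.20%. Over all promoters the ETS motif stood in 14.1%. All motifs were read on both strands, and every promoter with the palindrome also holds the core. Rearrangements of the core's own letters, TCGCGCT and CTCGTCG, stood in 7.12% and 1.55% of the extreme set and in 4.85% and 1.75% of the weaker one. The median GC content was 62.7% in the extreme set and 65.3% in the weaker one, with a median of 26 CpG in each.

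Counted by peak, 184 of 258 extreme control peaks at gene ends that overlap a listed promoter window (71.3%) held the core in at least 1 such window, against 15.9% at 100 to 290 and 4.78% below 100. The 184 with the core had a median fold enrichment, the ratio of pileup to background at the summit, of 14.3 (quartiles 12.6 and 16.3) and the 74 without it had 12.5 (10.7 and 14.6). The strongest promoters without the core were those of INTS13 and SEC22C, whose divergent partners FGFR1OP2 and NKTR do hold it, followed by CCDC200 and FARP2. The pattern was the same in kind for members inside genes: 13 of 20 control members away from gene ends that overlap a listed start of a protein-coding gene held the core, against 21 of 926 such peaks below 100. The BANP gene itself was among the 13, with an extreme peak at a start inside the gene (chr16:87950764-87951882). Its control −log10 p was 928 with a fold of 14.1, and its siRNA values were 1596 and 13.6.

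The gene-end members lay at 5′ ends. Strand is known only for genes in the promoter table, and 251 control and 332 siRNA members at gene ends had all their genes in it. Of these, 250 (99.6%) and 331 (99.7%) lay within 1 kb of a 5′ end, where 85.4% and 81.2% of all such peaks in the lists did, and 97.4% and 97.8% of those at 100 to 290. The exception in both lists was SDR42E2. A pair of divergent genes, starting in opposite directions under 1 peak, was found at 54 of the 251 (21.5%) and 68 of the 332 (20.5%), against 10.1% and 9.4% of all such peaks and 18.8% and 19.8% of those at 100 to 290. The next strongest peaks thus had both traits at similar shares. The summit stood a median of 81 bp before the 5′ end in the control list and 79 bp in the siRNA list, and was within 250 bp of it for 77.0% of 261 and of 344 members with a known 5′ end, against 62.0% and 56.2% of the other peaks at 5′ ends.

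The strongest gene-end member in both lists was RBM39, a splicing factor of the U2AF family, at chr20:35741700-35742689 in the control list. Its pileup was 4065 fragments (control) and 6443 (siRNA), its fold 20.0 and 18.4, and its −log10 p 3622 and 5509. Next came the divergent pair of INTS13, an Integrator subunit, and FGFR1OP2, with folds of 19.7 and 18.1 and −log10 p of 2076 and 3207. MED1, the Mediator subunit that contacts nuclear receptors, had −log10 p values of 1787 and 2616. At these 3 peaks the fold was lower in the siRNA list, while the pileup was higher and the p more extreme.

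RC3H2 (roquin-2, an RNA-binding ubiquitin ligase) had control and siRNA −log10 p of 1735 and 2921. UPF3A, of the nonsense-mediated decay pathway, had 1661 and 2860, with the same fold of 18.7 in both lists. The pair SEC22C and NKTR had 1531 and 2144, EDRF1 1501 and 1890, and TMEM18 1465 and 2213. The pair WDR77, a partner of the arginine methyltransferase PRMT5, and ATP5PB had 1400 and 2208. CDK12, which phosphorylates RNA polymerase II and lies next to MED1 on chromosome 17, was among the 10 strongest in the siRNA list, with 1363 and 2182.

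Peaks on either side of the threshold differed little in value. Just inside it in the control list were ANKRD13C at 291.3 and the pair HOMER2 and RAMAC at 290.5, and just outside it PC at 289.99 and DDX3X at 289.6. In the siRNA list ZNF33B at 291.4 and the pair CDCA3 and USP5 at 290.7 lay inside, and DDX59 at 289.6 and a peak at chr16:34571804-34573260 at 289.3 lay outside.

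Over all 19974 protein-coding genes, 385 (1.93%) had an extreme control peak at an end and 504 (2.52%) an extreme siRNA peak, 354 of them in both. The 17 gene lists below were written with earlier results of these data known, so their counts are descriptions. Of 68 ribosomal protein genes 12 (17.6%) were extreme in the control list and 15 (22.1%) in the siRNA list. RPL23A had −log10 p values of 687 and 766, RPS19 679 and 1023, and RPL12 602 and 755. Of the 11 ribosomal protein genes extreme in either list that have a promoter in the table, 9 held the core, as did 14 of all 54 in the table. Over all promoters with an extreme peak the share was 62.5% in the control list and 57.3% in the siRNA list.

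Genes of RNA processing were also listed. Of 33 genes of nonsense-mediated and other RNA decay, 5 were extreme in both lists, among them RC3H2, UPF3A, the exon junction helicase EIF4A3 and UPF3B. The promoters of these 4 hold the core. Of 61 splicing and RNA-binding factors, 7 were extreme in the control list, and 9 after CHAF1A siRNA. After RBM39 and NKTR came RBM15, with −log10 p values of 865 and 1387, and HNRNPK, with 712 and 1142. INTS9 and CCNC joined INTS13 and MED1 among 46 Mediator and Integrator genes. CCNC, the cyclin of the Mediator kinase module, had 251 in the control list and 477 in the siRNA list and so passed the threshold only in the latter.

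Of 22 histone chaperone genes 3 were extreme in both lists: NPM1, MMS22L and CHAF1A itself. At the CHAF1A promoter, which holds the core, the control peak had a fold of 14.0 and a −log10 p of 556, and the siRNA peak a fold of 12.5 and a −log10 p of 749. These are peaks on the CHAF1A gene and not its RNA, which the siRNA targets. Of 40 chromatin remodeller genes 3 were extreme in the control list, SMARCA5 (918), HELLS (658) and SRCAP (614), and INO80 joined them in the siRNA list. Of 37 genes of the DNA damage response 3 were extreme in both lists, among them XPC, which recognises bulky DNA lesions, with 585 and 772, and RRM2B, a ribonucleotide reductase subunit, with 527 and 442. None of 44 histone modifying enzymes was extreme, a count near the share of 1.93% over all genes.

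In the smaller counts RFC5, a subunit of the clamp loader, was the replication fork gene extreme in both lists, of 40, and RFC3 was extreme in the siRNA list. EIF5 was among the 2 extreme genes of 41 translation genes, CDC20 among 29 mitotic genes, and RBM15 and METTL16 among 27 RNA modification enzymes. CUL3 was extreme in both lists among 44 ubiquitin and proteasome genes, and PSMD2 and PSMB2 in the siRNA list. HSPH1 was extreme among 26 immediate early and stress genes. The control shares were 2.5% for replication fork, 4.88% translation, 3.45% mitotic, 7.41% RNA modification, 2.27% ubiquitin and proteasome and 3.85% stress genes. In the siRNA list they were 5%, 4.88%, 3.45%, 7.41%, 6.82% and 3.85%. Over all protein-coding genes they were 1.93% and 2.52%, and each of these lists rests on few extreme genes. The 17 cholangiocyte, 15 hepatocyte and 12 immune, stromal and endothelial genes held none, a count near the shares over all genes. Among genes extreme in either list with a listed promoter, the core stood in 3 of 7 splicing and 2 of 4 remodeller genes. It stood in 2 of 3 Mediator and Integrator, 2 of 3 chaperone, 3 of 4 ubiquitin and proteasome and 2 of 2 DNA damage genes. For replication fork and RNA modification genes it was 1 of 2 each, for stress genes 1 of 1, and for translation and mitotic genes 0 of 1 each.

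Away from gene ends the members were of other kinds. Their median −log10 p, the value that chose them, was 559 in the control list and 567 in the siRNA list, and that of gene-end members 462 and 529. The highest values were mostly away from gene ends: 2 of the 43 control members above 2000 lay at a gene end, as did 10 of the 57 siRNA members. Most members away from gene ends lay in stretches of at least 1 Mb without a protein-coding gene, a definition chosen after values were seen. These were 204 of 347 in the control list (58.8%) and 222 of 391 in the siRNA list (56.8%). Peaks over nuclear copies of mitochondrial DNA, genes of tRNA, rRNA or small RNAs, or immune receptor loci were then put in those classes. The long gap class so held 193 (55.6%) and 211 (54.0%), against 11.7% and 11.2% of all peaks away from gene ends. Among peaks away from gene ends at 100 to 290 the shares were 31.2% and 44.6%. No sequence under these peaks was used here. The sources do not say how reads with several equal places in the genome were treated, and its part in these peaks was not tested.

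**Figure D2:**
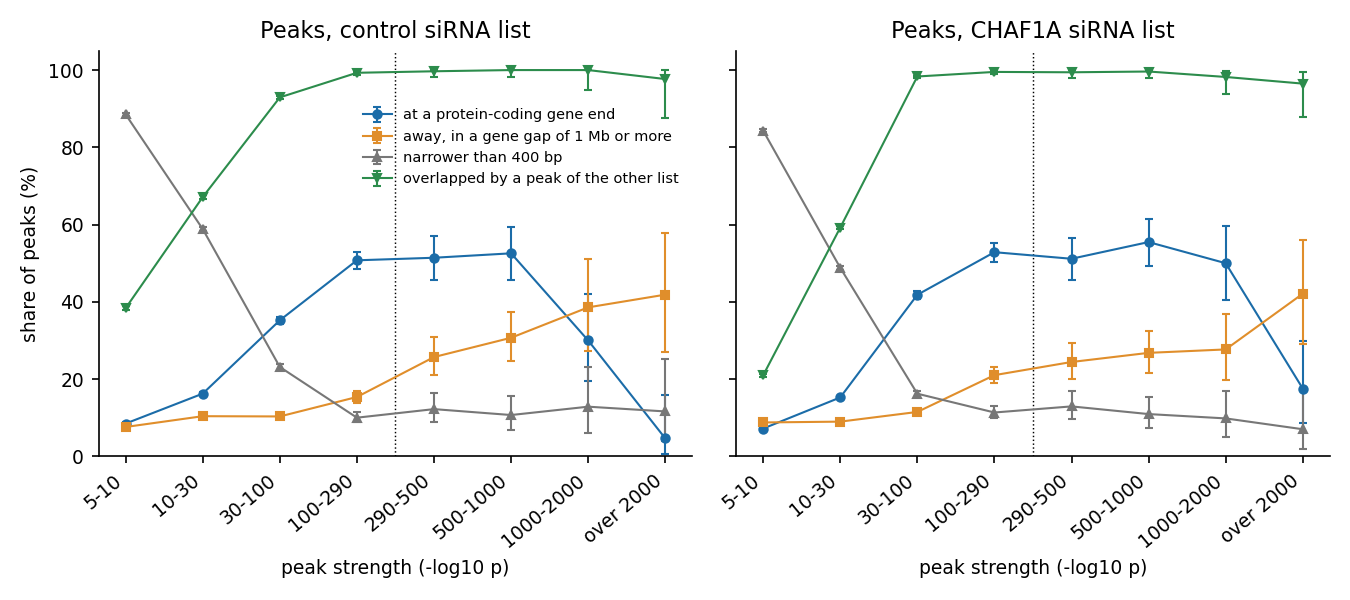
Share of peaks (y axis, percent) by −log10 p (x axis, 8 steps) in the control list (left) and the siRNA list (right), with 95% exact binomial intervals and a dotted line at a −log10 p of 290. The share at gene ends is close to 50% from 100 to 1000 and falls to 4.65% (control) and 17.5% (siRNA) above 2000, while the share in the class of gene gaps of 1 Mb or more reaches 41.9% and 42.1%.

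The gap on chromosome 1 from base 121463130 to 143902385, which spans the centromere and the large heterochromatic block beside it, held 69 control and 81 siRNA members. The gaps on chromosomes 4, 17, 10, 16, 11 and 5, which also span centromeres, held 31, 24, 18, 13, 9 and 8 control members and 31, 25, 18, 15, 10 and 7 siRNA members. Together, and counting members of every class, these 7 gaps held 172 control members, 49.6% of those away from gene ends, and 187 siRNA members, 47.8%. The gaps differed in their folds. The median fold of control members was 41.3 on chromosome 17, 31.6 on chromosome 11 and 18.3 on chromosome 1, and 7.98 on chromosome 4 and 6.26 on chromosome 16. The background at the summit was 15.0 fragments on chromosome 17 and 282 on chromosome 16, against a genome-wide 6.34.

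**Figure D3:**
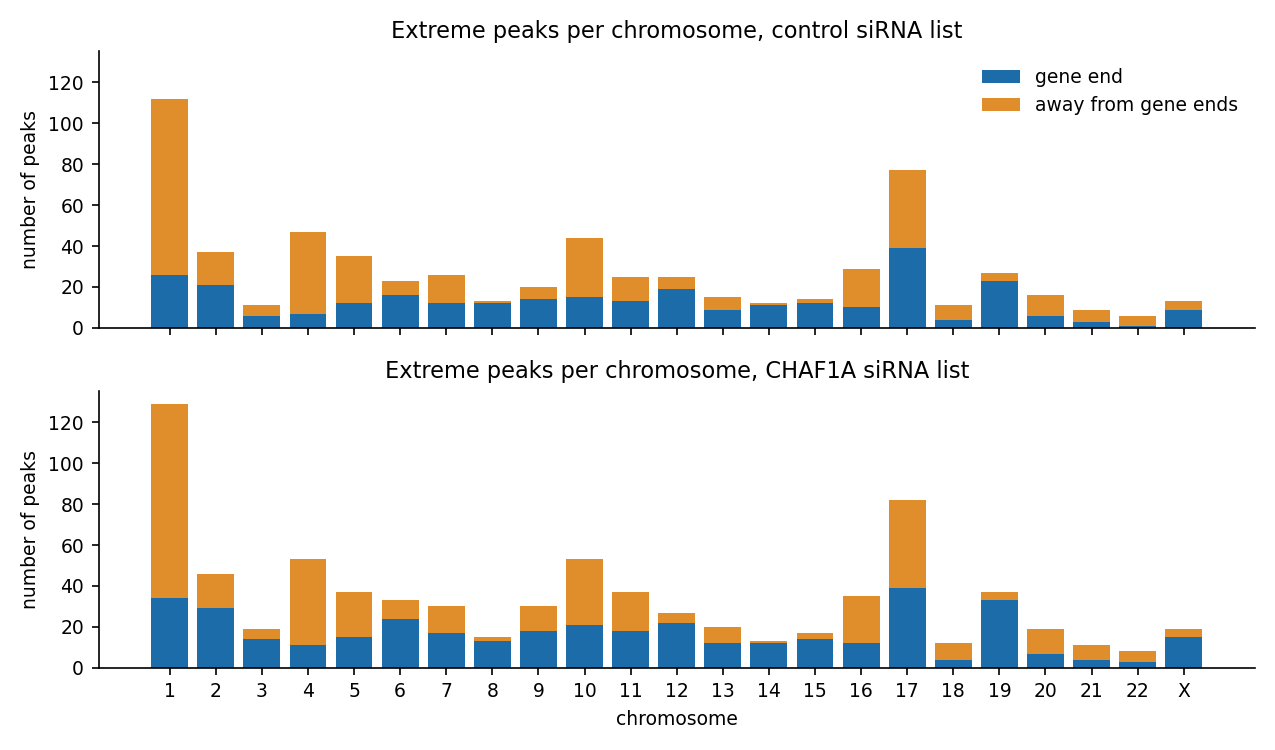
Number of extreme peaks (y axis) on each chromosome (x axis), with those at gene ends in blue and those away from gene ends in orange, for the control list (top) and the siRNA list (bottom). Chromosome 1 holds the most in both lists, 112 and 129, of which 86 and 95 lie away from gene ends; chromosome 17 follows with 77 and 82.

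The most extreme peak of both lists was a wide one at chr3:93470362-93470829, in the gap that spans the centromere of chromosome 3. Its pileup was 99414 fragments (control) and 97942 (siRNA), with folds of 36.6 and 35.1, and −log10 p of 113476 and 110012. The next was at chr17:22521207-22521751, with −log10 p of 101076 and 107817 and the highest fold of all members in both lists, 61.9 and 59.3. The other leading wide peaks away from gene ends were at chr5:49601168-49603017, chr10:41859270-41860419 and chr11:10509221-10509724, with control −log10 p from 11911 to 13544, and the mitochondrial copy MTATP6P1 on chromosome 1.  High folds elsewhere were those of chr17:25920036-25920475 (61.4 and 58.4), chr4:50676727-50677356 (53.3 and 50.1) and chr17:26603549-26604383 (53.3 and 50.8).

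Among the narrow members a peak of 201 bp at chr13:109424132-109424332, away from any annotated gene, led both lists with −log10 p of 38306 and 38379 and folds of 43.7 and 41.9. Another at chr18:2842270-2842563 had folds of 56.9 and 54.3. A narrow peak at the end of chromosome 18, chr18:80262902-80263281, had folds of 34.6 and 32.7, and one inside COL23A1, a collagen gene, had 38.2 and 35.9. The classes differed in fold and background, which the threshold on p ties together, since at a low background only a high fold can pass it. The median fold of narrow members was 25.4 (quartiles 17.6 and 33.4) in the control and 23.4 (13.8 and 30.9) in the siRNA list. Wide members away from gene ends had 14.9 (9.04 and 24.0) and 13.9 (8.75 and 21.5), and wide members at gene ends 13.6 (11.8 and 15.7) and 12.3 (10.6 and 14.1). The median background at the summit of narrow members was 22.2 and 27.1 fragments, and that of gene-end members 47.2 and 66.2. No gene-end member had a background under 2 times the genome-wide level, and 33 control and 43 siRNA members away from gene ends did.

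**Figure D4:**
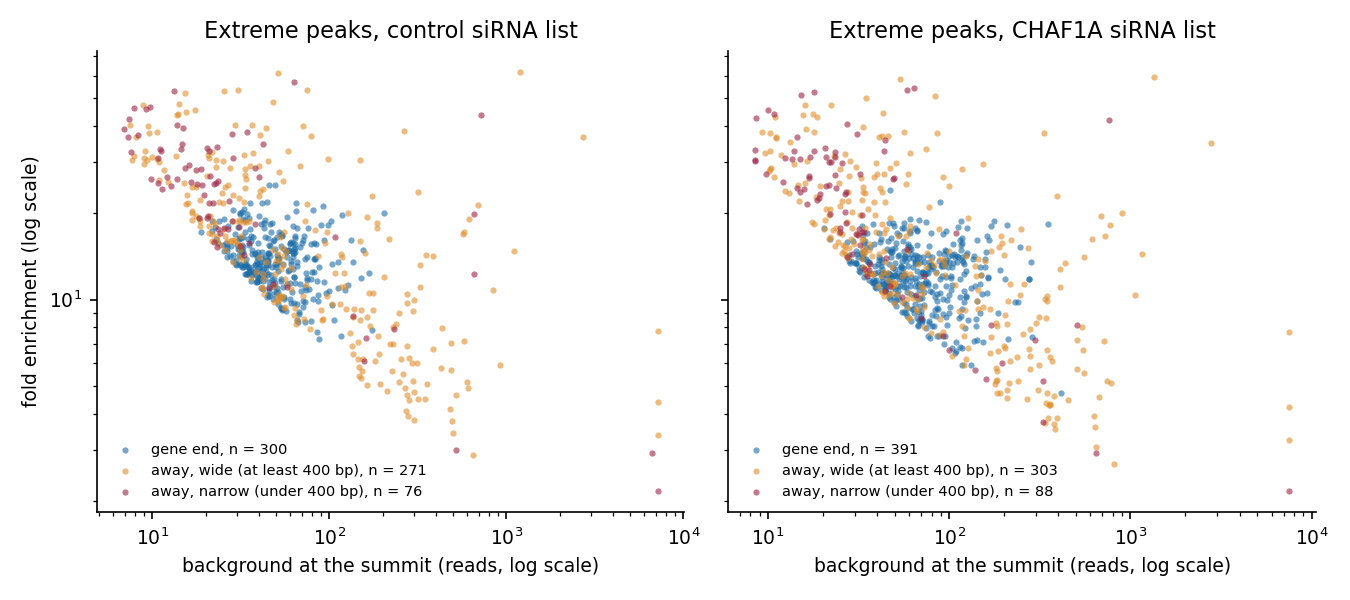
Fold enrichment (y axis, log scale) against the background at the summit in fragments (x axis, log scale) for every extreme peak, with the control list on the left and the siRNA list on the right, coloured by class. The gene-end members form 1 compact group, while those away from gene ends spread from backgrounds near the genome-wide level to a block of mitochondrial copies at 6609 to 7505 fragments; the straight lower edge is the threshold on p.

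Nuclear copies of mitochondrial DNA were few in the lists and frequent among the members. They were 15 of the 347 control members away from gene ends and 16 of 391 in the siRNA list, where 0.0478% and 0.0532% of all peaks away from gene ends overlapped one. MTATP6P1, at chr1:633751-634161, had −log10 p of 28517 and 29363 with folds of 7.79 and 7.70. It stands in a block on chromosome 1 together with peaks at MTCO1P12, MTND2P28 and, in the control list, MTND1P23, whose backgrounds were 6609 to 7133 fragments in the control list and 7503 to 7505 in the siRNA list. With those backgrounds the folds of MTND2P28, 2.16 and 2.15, were the lowest of all members in both lists. Other low folds were at chr4:49150440-49151038 (2.89 and 2.68), at MTND1P23 (2.92, control list) and at chr4:49147288-49147654 (2.94 in the siRNA list).

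Genes of small RNAs held 8 control and 6 siRNA members, against 0.142% and 0.127% of all peaks away from gene ends, all on chromosome 17 but RNU1-2, a gene of the U1 spliceosomal RNA that was extreme in the control list. They were the 4 U3 snoRNA genes SNORD3A, SNORD3B-1, SNORD3B-2 and SNORD3D and 3 genes annotated as snRNA, of which LOC124904144 was extreme in the control list. SNORD3D had folds of 19.3 and 16.6. The strongest in the control list was LOC124904138, at chr17:43251582-43252319, with folds of 22.8 and 15.7 and −log10 p of 3794 and 2430. In the siRNA list it was LOC124904137, with a −log10 p of 2845. The tRNA gene TRL-CAA1-1 was extreme in both lists and TRE-TTC2-1 and TRQ-TTG1-1 in the siRNA list, where tRNA genes underlay 0.194% and 0.0689% of all peaks away from gene ends. The 1 rRNA gene that was extreme in both lists, LOC124905432, compares with 0.0414% and 0.0218% of such peaks.

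Of the members away from gene ends, 17 in each list lay beyond the outermost protein-coding gene of a chromosome, against 0.33% and 0.294% of all peaks away from gene ends. The strongest was near the end of chromosome X, at chrX:156029981-156030767, with folds of 37.0 and 33.4, followed by chromosome 22 at chr22:50807876-50808467, with 48.7 and 44.6. The immunoglobulin κ locus held 7 members in each list, with −log10 p of up to 3086 and 3705, and immune receptor loci underlay 0.223% and 0.202% of all peaks away from gene ends. Pseudogenes held 11 and 10, where 2.37% and 2.43% of such peaks lay, among them ROCK1P1 on chromosome 18 with 4096 and 5772 and copies of DUX4 and FAM86. Bodies of protein-coding genes held 50 and 61 members, where 49% and 49.8% of all peaks away from gene ends lay in them. Genes of long non-coding and other RNAs held 8 and 9 (8.74% and 8.31%), and other intergenic sequence 36 and 49 (27.2% and 27.5% of all peaks away from gene ends). Of the wide members in gene bodies, 21 of 39 and 28 of 50 lay within 1 kb of a listed transcript start inside the gene, against 11.1% and 8.86% of all wide peaks in gene bodies and 30.8% and 35.7% of those at 100 to 290.

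Nearly all members were peaks in both lists, as were nearly all of the next strongest peaks. A peak of the siRNA list overlapped 645 of the 647 control members (99.7% [98.9 to 99.96]) by at least 1 bp, and a control peak 775 of the 782 siRNA members (99.1% [98.2 to 99.6]), against 61.8% and 47.5% of all peaks. At a −log10 p of 100 to 290 the shares were 99.3% of 2128 control peaks and 99.5% of 1665 siRNA peaks, so sharing was not particular to the members. The other peak was extreme too for 602 control members (93.0%), where 1.05% of all control peaks overlapped an extreme siRNA peak, and for 600 siRNA members (76.7%), where 0.663% did. All members at gene ends were shared. Joined across lists, the members made 413 sites at gene ends, of which 279 were extreme in both lists, 22 in the control list and 112 in the siRNA list, and 414 sites away from gene ends, with 321, 23 and 70. The lists differ in background level, so a site extreme in 1 list is not read as a difference in binding.

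The 2 control members without a siRNA peak were MTND1P23 (chr1:629128-629417) and a narrow peak at chr17:21960369-21960555 with a fold of 36.8. The 7 siRNA members without a control peak were all away from gene ends. The strongest, at chr5:123761052-123761328, had 3191 fragments, a fold of 53.7 and a −log10 p of 4186. The others were at MTND4P12 inside PCBD2 (fold 8.15), in the T cell receptor β locus at chr7:142666121-142666824 (36.8), at chr17:488989-489205 (40.6), at MTND4P39 inside CPA6 (33.5), at chr7:45251971-45252161 (24.4) and at chr1:143245419-143245591 (6.69). Of the 9 members without a counterpart, 8 were narrow and 3 were mitochondrial copies. With 1 list per group no test of these differences was possible.

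Between the lists, sites at gene ends and sites away from them moved apart in pileup. Each pileup was divided by the genome-wide background of its list to allow for its level (6.34 control and 8.49 siRNA fragments). That level was inferred, as the most frequent background among the peaks of a list, each solved from fold and p. So scaled, the siRNA pileup was higher than the control pileup at 314 of 413 gene-end sites. The median log2 difference was 0.16 (quartiles 0.01 and 0.28). Away from gene ends the scaled siRNA pileup was higher at 80 of 405 sites, with a median of −0.18 (−0.34 and −0.07). Among all shared control peaks 31.5% at gene ends and 30.4% away from them were higher in the siRNA list, with medians of −0.19 and −0.18. Without the division the medians were 0.58 and 0.24, so the direction away from gene ends depends on it. The difference between the medians of the 2 classes, 0.34, is the same either way by construction, since the division shifts every site by the same amount. Among peaks with a control −log10 p of 100 to 290 this difference was 0.05. These values come from 1 list per group and the sites were chosen on p from the same lists, so they describe these lists only.

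**Figure D5:**
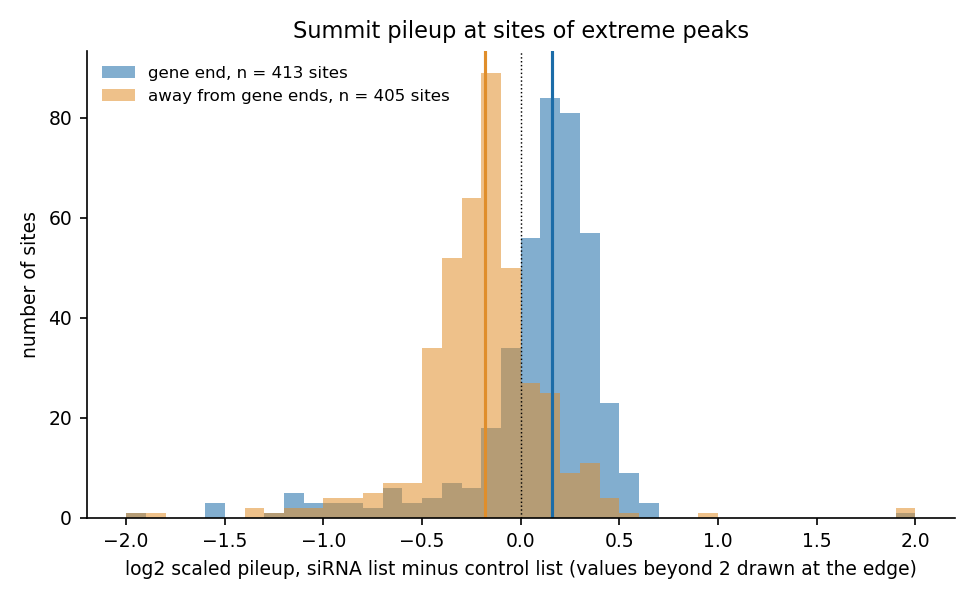
Number of sites (y axis) by the log2 difference of scaled summit pileup, siRNA list minus control list (x axis), for 413 sites at gene ends (blue) and 405 away from them (orange) with a peak in both lists; coloured lines are medians. The gene-end sites centre on 0.16 and the others on −0.18, and the distributions overlap.

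The fold enrichment, in which the local background also enters, was lower in the siRNA list for both classes, with median log2 differences of −0.12 at gene ends and −0.07 away from them. Fold was higher in the siRNA list at 70 of 413 and 84 of 405 sites. Gene-end sites whose promoter windows hold the core had a median difference of scaled pileup of 0.20, with 196 of 226 higher in the siRNA list, and those without it 0.11, with 80 of 130 higher. Whether these differences exceed the spread between samples cannot be told from 1 list per group.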

How the data were processed

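CHAF1A CUT&Tag was measured in RBE cells after control siRNA (2 samples) or CHAF1A siRNA (2 samples). Per the submitters' processing notes, reads were handled with MACS2 2.1.2, Bowtie2 2.2.5, deepTools 3.4.3 and fastp 0.20.1 on build hg38; parameters, a control library and pooling of samples are not stated. The authors deposited 1 peak list per group, assigned by the names NC and si, which match the titles only in part. Each peak has the fold enrichment, a ratio of summit pileup to background, and the −log10 p that the authors' caller gave it, both as deposited.

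Pileup and background were solved from the ratio and the −log10 p, with fold = (pileup + 1) / (background + 1) and a Poisson tail. A whole pileup, within 0.02 reads, resulted for 98.5% of control and 98.7% of siRNA members; the solver was tested on simulated data. No read depth is given, so depth is known only through the background. The genome-wide background of a list was taken as the most frequent solved background among its peaks, after rounding. Gene positions, promoters and strand came from RefSeq (GRCh38.p14). Overlap means at least 1 bp. The software was matplotlib 3.10.9, scipy 1.17.1, Python 3.11.15, pandas 2.3.3 and numpy 2.4.6.

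The members and the gene and motif lists were chosen with earlier results of these data known. Named per list are the 10 strongest gene-end members, the 6 strongest narrow and wide members away, the 5 highest and 3 lowest folds, members without a counterpart, 2 peaks on each side of the threshold and up to 4 genes per gene list; further genes, the 40-base windows and the words beyond the 12 motifs were chosen after values were seen. A few members that this rule would name are not reported here.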

Additional observations from a re-analysis of the deposited data

Results flagged for a closer look

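Extreme peaks also lay on sequences outside chromosomes 1 to 22 and X, which the comparisons above do not use, and were flagged as signal in unused data. They numbered 79 of 1030 such peaks (7.67%) in the control list and 90 of 1047 (8.6%) in the siRNA list. Of these, 30 and 36 lay on unlocalised and 37 and 39 on unplaced sequences. The remaining 12 and 15 lay on chromosome Y, with a −log10 p of up to 2279 and 2642. Over all 79 and 90 the median fold was 12.1 and 11.2, and the strongest had a −log10 p of 17120 and 20233.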

How the results depend on the processing

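No paired analysis was possible because each group has 1 peak list; for the same reason a replicate block and leaving out each replicate were not run. Of 123 alternatives over 35 results, 83 were counted as unchanged, 39 as moved and 1 as reversed. For shares and medians, unchanged means inside the interval of the main value and moved means outside it. Counts have no such interval. Only the siRNA minus control differences can change sign, so shares, counts and median folds could not reverse. The tally is therefore no measure of how stable their direction is. The causes were not tested. Values below are control and siRNA in that order unless stated. The away sites reversed with the pileup not scaled, from −0.18 to 0.24, and gene-end sites moved to 0.58. Among sites extreme in the control list the scaled pileup away was −0.22 and the fold at gene ends −0.144, or −0.137 among sites extreme in both. With 50% reciprocal overlap 97.5% and 96.8% were shared. The share extreme in the other list was 86.2% and 80.7% at a −log10 p of at least 200, 96.0% and 72.1% at 500, and 87.6% and 87.3% with equal numbers of top peaks. The share at gene ends was 41.5% (control) at 500, and 41.3% and 44.8% over every sequence in the lists, where the share of the long gap class was 48.1% and 47.0%. Unlocalised and unplaced sequences had no gene annotation here, so their peaks could not count in either share. Narrow members away from gene ends were 9.51% and 10.2% at a width under 300 bp and 34.6% and 33.8% under 500 bp; narrow siRNA members at gene ends were 0% at 500 and 0% under 300 bp, and 100% of siRNA members at gene ends lay at a 5′ end at 500. Median folds at gene ends were 12.6 and 11.6 at 200 and 15.0 and 13.5 at 500. Wide away they were 12.7 (control) at 200 and 16.9 and 15.2 at 500, and narrow away 17.7 (siRNA) at 200 and 28.7 and 30.1 at 500. The palindrome stood in 15.1% of promoters at 200 and 30.7% at 500, and the core in 45.2% and 72.7%, or in 70.9% counted by peak. The alternatives on scaling, promoters and the gap length were chosen after seeing the data.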
